A study of Mus musculus with 8 samples.

Results

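The genes described here are 40 genes of T cells and intraepithelial lymphocytes, among 27574 gene names on a whole mouse genome array. They were chosen by name, as probes whose gene name in the scanner files was one of the 40 symbols or an older alias of it. The brightest of a gene's probes stood for it, and all 40 genes were on the array, with 59 probes in all. Two-colour arrays measured 2 comparisons. In the deletion, small intestinal epithelium of Ah-Cre animals homozygous for a floxed Ascl2 allele was set against that of Ah-Cre animals with 1 floxed and 1 wild-type allele, taken 3 and 5 days after induction, so the controls carried the Cre transgene and a floxed allele too. In the sorts, cells with high green fluorescence (GFPhi) were set against cells with low fluorescence (GFPlo), both from the intestine of Lgr5-EGFP-ires-CreERT2 mice, in 2 sorts that each pooled 3 mice. The age of the mice, the inducing agent and the number of animals behind each deletion RNA are not given in the sources used here. Every RNA pair went on 2 arrays of opposite dye, which were averaged, leaving n = 2 RNA pairs for a comparison and n = 1 for day 3 or day 5 alone.

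Intraepithelial lymphocytes are T cells that lie between the epithelial cells of the gut lining. Many carry the alpha E beta 7 integrin, which holds on to E-cadherin of the epithelium, as well as CD8 and a store of cytotoxic granules, and they depend on interleukin-15 that epithelial cells present to them. Ascl2 is a basic helix-loop-helix transcription factor of the crypt stem cells, and the Ah promoter switches Cre on in intestinal epithelium. An epithelial preparation therefore holds intraepithelial lymphocytes unless they are removed.

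All 40 genes were well above background in at least 1 of the 2 deletion RNAs on all 4 of its arrays, and 39 of them were so in both RNAs. Prf1, perforin, was above background on 3 of 4 arrays in the control RNA. In the sorted cells 9 of the 40 genes could be tested, and 21 were above background on no sort array in either RNA. Per channel, 54.6% to 66.4% of all probes were well above background on the deletion arrays and 35.1% to 44.5% on the sort arrays. Ascl2 itself was lower in deleted RNA by similar amounts on both days, with log2 ratios of -1.33 and -1.32. Lgr5 was higher in GFPhi cells, with log2 ratios of 2.10 and 1.61 in the 2 sorts. Both fit the labels, but neither passed limma's test over all genes, with adjusted p = 0.239 for Ascl2 in the deletion and 0.629 for Lgr5 in the sorts.

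The upstream regions of 4 of these genes are shown because the genes had the highest day 3 log2 ratios among the 27 of the 40 with an entry in RefSeq's promoter table (build GRCm38.p6). They are Gzma (granzyme A) at chr13:113100982-113101231 on the minus strand, Gzmb (granzyme B) at chr14:56262335-56262584 on the minus strand, Cd3g at chr9:44980432-44980681 on the minus strand, and Cd3d at chr9:44981536-44981785 on the plus strand. Each run is the 250 bases before the annotated start, read 5′ to 3′ on the gene's strand, and capitals mark letters that match a searched motif.
Gzma: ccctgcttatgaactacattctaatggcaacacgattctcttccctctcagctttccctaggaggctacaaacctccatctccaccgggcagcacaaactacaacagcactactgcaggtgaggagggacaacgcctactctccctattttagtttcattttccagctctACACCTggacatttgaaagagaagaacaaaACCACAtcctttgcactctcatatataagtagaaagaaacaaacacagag
Gzmb: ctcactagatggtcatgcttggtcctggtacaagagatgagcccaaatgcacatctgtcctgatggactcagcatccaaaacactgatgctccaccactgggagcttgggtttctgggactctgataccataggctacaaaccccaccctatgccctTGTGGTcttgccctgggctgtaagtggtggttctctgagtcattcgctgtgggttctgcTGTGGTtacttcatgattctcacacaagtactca
Cd3g: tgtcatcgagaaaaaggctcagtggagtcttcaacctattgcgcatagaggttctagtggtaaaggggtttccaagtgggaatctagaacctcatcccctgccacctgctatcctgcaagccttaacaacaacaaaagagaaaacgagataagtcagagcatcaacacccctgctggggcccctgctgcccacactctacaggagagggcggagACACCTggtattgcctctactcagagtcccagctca
Cd3d: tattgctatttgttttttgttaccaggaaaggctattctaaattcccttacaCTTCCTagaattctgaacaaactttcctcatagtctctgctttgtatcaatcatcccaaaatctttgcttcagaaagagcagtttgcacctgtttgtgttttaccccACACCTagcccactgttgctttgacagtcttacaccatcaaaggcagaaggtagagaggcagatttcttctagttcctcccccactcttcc

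The motifs were letters that factors of the RUNX, ETS and T-box families and E-box factors such as Ascl2 are known to bind, searched on both strands. The ETS letters AGGAAG were in 18 of the 27 upstream regions, 66.7%, against 29.2% of 27025 genes' regions. The RUNX letters TGTGGT were in 10 of the 27, 37%, against 14.2%, and Gzmb held 2 matches and Gzma 1. The T-box letters AGGTGT were in 8 of the 27, 29.6%, against 12%, among them Gzma, Cd3d, Cd3e and Cd3g. The E-box letters CAGCTG were in 2 of the 27, those of Cd160 and Prf1, 7.41% against 12.8%. These shares are descriptions of the letters in a window, not matched for base composition. Cd3d and Cd3g lie head to head, with annotated starts 1355 bases apart on opposite strands, and the start of Cd3e is 27825 bases from that of Cd3d.

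The T cell and intraepithelial lymphocyte genes were higher in Ascl2-deleted than in control epithelium on day 3 and level with it on day 5. The median log2 ratio of deleted over control RNA over the 40 genes was 0.89 on day 3 and -0.01 on day 5, while the median over all genes was 0.00 on day 3 and -0.01 on day 5. On day 3, 37 of the 40 were above 0 on both arrays, against 38.9% of all genes tested. At least 2-fold higher on both day 3 arrays were 9 of the 40, against 1.72% of all genes tested, and with the scanner software's own log ratio they were 20 of the 40, against 3.17%. On day 5, 10 were above 0 on both arrays, against 31.5% of all genes, 13 were below 0 on both, against 34.9%, and none was 2-fold higher on both, against 1.15%. In such bulk RNA, fewer cells of a type and less RNA per cell cannot be told apart.

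**Figure D1:**
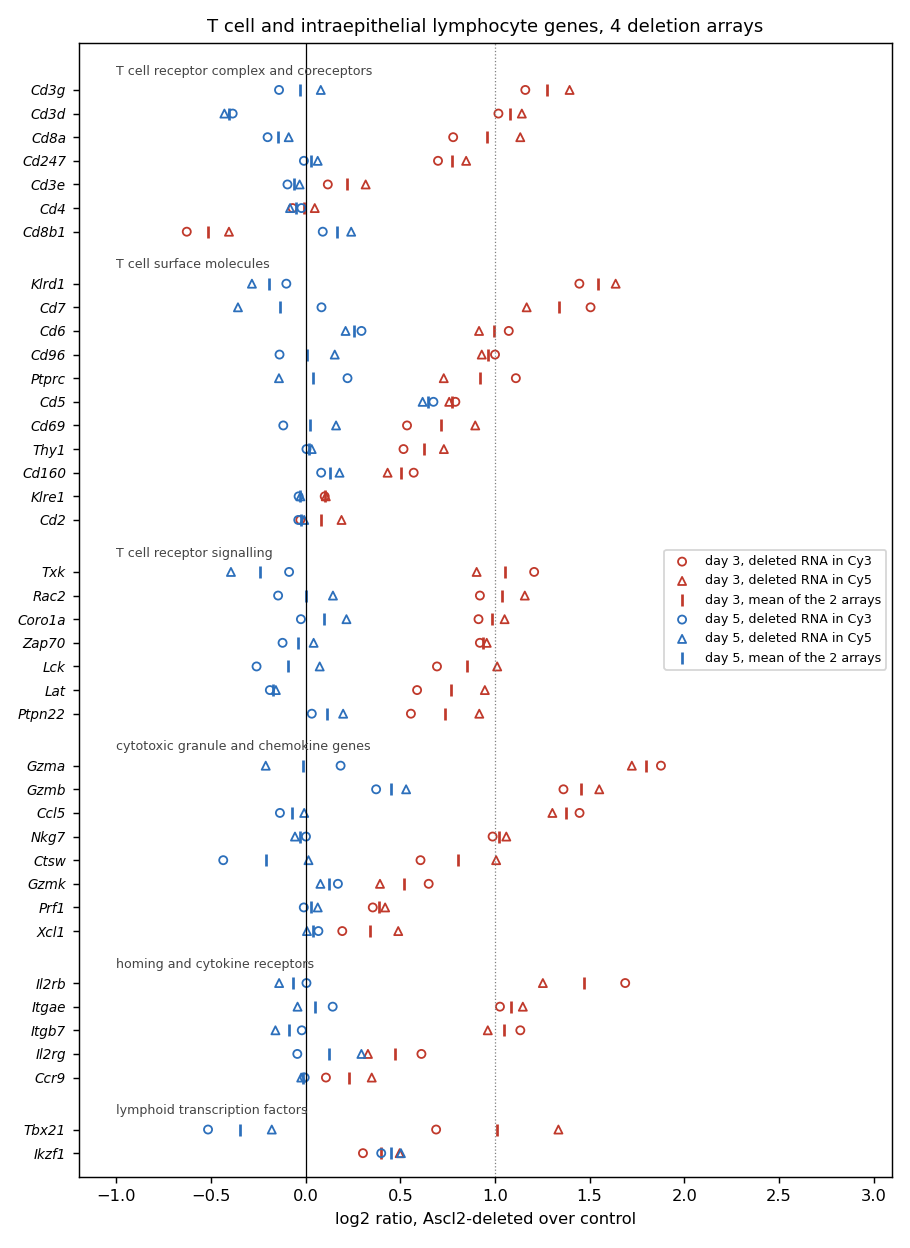
Log2 ratio of Ascl2-deleted over control RNA for the 40 genes (rows, grouped by role) on the 2 day 3 arrays (red) and the 2 day 5 arrays (blue); circles and triangles are the 2 dye orientations, bars their mean, and the dotted line marks a 2-fold difference. Most red symbols lie between 0 and 2, and the blue ones lie on either side of 0.

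Each RNA pair had 1 deleted and 1 control RNA, so the 2 days served as the replicates of the deletion. In that fit, limma called 0 of the 40 genes higher and 0 lower at an adjusted p under 0.05, as it called 0% of all 15890 genes tested in either direction. Limma's unadjusted p was under 0.05 for 4 of the 40, namely Cd5, Ikzf1, Gzmb and Cd6, against 9.65% of all genes. With the RNA pair as a random block over all 8 arrays, 2 of the 40 were called higher, Cd5 and Gzmb, against 0.856% of all genes. Without the day 5 pair, limma called 34 of the 40 higher, against 17.7% of all genes, and 1 lower, against 20.7%. Without the day 3 pair it called 2 higher, a share near the 4.34% of all genes. In both cases the lone RNA pair was assumed to vary like the sorts.

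The difference between the days was tested with a coefficient for each day. The log2 ratio of deleted over control was lower on day 5 than on day 3 for 27 of the 40 genes, against 12.3% of all genes tested. It was higher for 1, Cd8b1, against 15.5% (limma, adjusted p under 0.05). Here and below, fell, rose, lower and higher between the days refer to this ratio, not to the level in either RNA. The median difference was -0.91 on the log2 scale. With 1 RNA pair a day, the spread in this test comes from the 2 sorts, where most of these genes were dim and their log2 ratios lay close to 0, so the standard errors are low. The median SD between the sorts was 0.0460 over genes testable in the deletion alone and 0.0809 over genes testable in both comparisons. In a fit over genes testable in both comparisons, 8 of 9 of these genes were lower on day 5, against 9.27% of all genes in that fit, and 1 was higher, against 14.4%. With the scanner software's log ratio, or with median centring in place of loess, limma called none of the 40 and no other gene, and unadjusted p was under 0.05 for 18 and 28 of the 40, against 19% and 15.8% of all genes.

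Levels were also compared across the 4 deletion RNAs. After the intensities had been brought to 1 scale across arrays, the median level of the 40 genes was 9.27 (log2 intensity) in deleted RNA of day 3, 8.29 in control RNA of day 3, 9.30 in deleted RNA of day 5 and 9.20 in control RNA of day 5. On this scale the control RNA of day 3 was the low one, and the other 3 RNAs were close to each other. The median over all genes tested lay between 9.04 and 9.11 in all 4 RNAs. For 36 of the 40 genes the day 3 control was the lowest of the 4 RNAs, against 24.7% of all genes, and for 38 it was below the day 5 control, against 53.7%. The deleted RNA of day 3 was the highest of the 4 for 17 of the 40, against 31.5%.

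The processed signals carry no scaling between arrays, and the day 3 slide was the brighter one. Relative to the median of all genes, the median of the 40 was 0.04 in deleted and -1.15 in control RNA of day 3, and 0.29 and 0.12 in deleted and control RNA of day 5. The day 3 control was again the lowest, while the deleted RNA of day 3 lay below both day 5 RNAs. Gene by gene on this relative scale, the day 3 control was the lowest for 38 of the 40, against 22% of all genes, and the deleted RNA of day 3 the highest for 16, against 33.8%. On the signals as they stand, the day 3 control was the lowest for 17 of the 40, against 2.52%, and below the day 5 control for 22, against 6.25%. There the deleted RNA of day 3 was the highest for 34, against 49.5%. Which RNA stood apart therefore rests on the scaling between slides. Day, slide and mice differ together between these pairs and cannot be told apart.

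**Figure D2:**
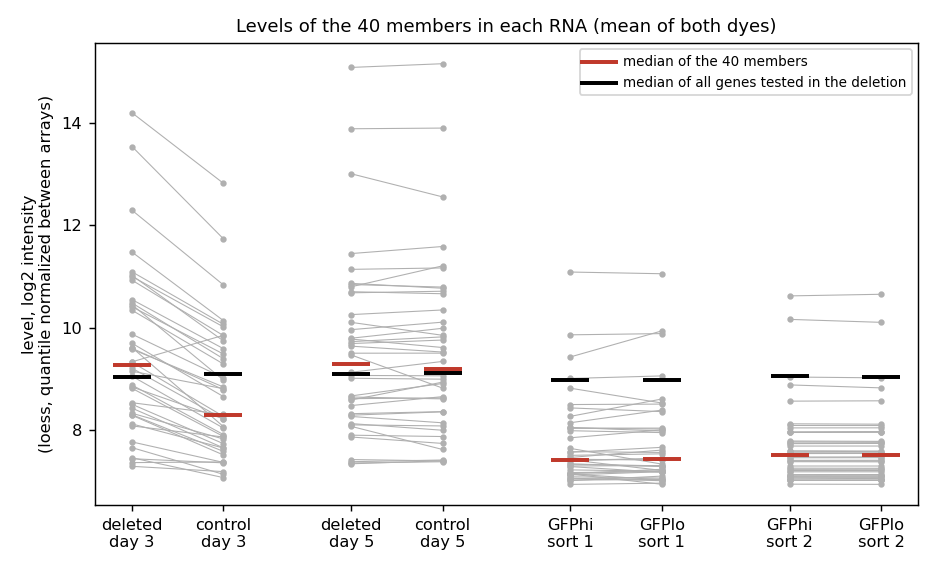
Level of each of the 40 genes (grey points, log2 intensity after loess and quantile normalisation between arrays) in each RNA, with lines joining the 2 RNAs of a pair, red bars at the median of the 40 genes and black bars at the median of all genes tested in the deletion. The red bar is at 8.29 in the day 3 control, below the other 3 deletion RNAs at 9.20 to 9.30, and is at 7.43 to 7.51 in the sorted cells.

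Gzma, which encodes granzyme A, a protease of lymphocyte granules, had the highest day 3 ratio of the 40 genes. Its processed signals on day 3 were 56770 and 51089 in deleted RNA against 15058 and 15079 in control RNA. On day 5, deleted RNA gave 35000 and 29700 and control RNA 29100 and 34700. The day 3 RNAs did not overlap, and the day 5 RNAs did. Its log2 ratios were 1.88 and 1.72 on day 3, 3.48-fold on average, and 0.18 and -0.21 on day 5. The difference between the days was -1.81 ± 0.11 (SE; limma, adjusted p = 0.0041), and the mean over both days, 0.89 ± 0.46, did not pass (adjusted p = 0.556).

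Gzmb, granzyme B, had log2 ratios of 1.36 and 1.55 on day 3 and 0.37 and 0.53 on day 5, above 0 on all 4 arrays. Between the days it fell by 1.01 ± 0.11 (SE; limma, adjusted p = 0.0102). Its processed signals on day 5 were 15400 and 15400 in deleted RNA against 11800 and 10600 in control RNA, so deleted RNA was still the higher one. Ccl5, a chemokine that effector T cells store, had log2 ratios of 1.45 and 1.30 on day 3 and -0.14 and -0.01 on day 5, and its second probe gave means of 1.40 and 0.00. The other genes of this group were Nkg7 and Ctsw, a granule membrane protein and the granule protease cathepsin W, with day 3 means of 1.02 and 0.81, Gzmk (granzyme K) at 0.52, Prf1 at 0.39 and Xcl1, a chemokine, at 0.34. By processed signals the day 3 means were 1.07 for Nkg7, 0.89 for Ctsw, 1.37 for Gzmk, 1.24 for Prf1 and 0.40 for Xcl1. The offset of 50 in the background correction compresses the ratios of dim probes, here and below. Of the 8 genes, 5 fell between the days in limma's test, against 12.3% of all genes tested, and Gzmk, Prf1 and Xcl1 did not pass.

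The genes of the T cell receptor complex split by probe. CD3 gamma and delta are signalling chains of the receptor. Cd3g had log2 ratios of 1.16 and 1.39 on day 3 and -0.14 and 0.08 on day 5, and Cd3d had 1.02 and 1.14 and then -0.39 and -0.43. Cd3g fell by 1.31 ± 0.11 between the days, and Cd3d fell by 1.49 ± 0.11 (SE; limma, adjusted p = 0.0067 and 0.0054). Cd247, the zeta chain, had a day 3 mean of 0.77 and a day 5 mean of 0.03 and also fell. Cd3e, their partner chain epsilon, had 0.12 and 0.32 on day 3 and -0.10 and -0.03 on day 5, a difference of -0.28 ± 0.12 that did not pass (adjusted p = 0.147). Its probe was dim, at processed signals of 177 to 267 over the deletion arrays, and its second probe was above background on no deletion array. The Cd247 probe was about as dim, at 125 to 325. By processed signals the day 3 means were 0.31 for Cd3e and 1.11 for Cd247. The other probes of Cd247 gave day 3 means of 0.05 and 0.15, and neither was above background on all deletion arrays in either RNA.

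Of the coreceptors, Cd8a moved and Cd4 did not pass. Cd8a had log2 ratios of 0.78 and 1.13 on day 3 and -0.20 and -0.09 on day 5, and its 3 probes gave day 3 means of 0.96, 1.05 and 1.19. Between the days its ratio fell by 1.10 ± 0.11 (SE; limma, adjusted p = 0.0082). Cd4 had -0.07 and 0.05 on day 3 and -0.02 and -0.08 on day 5, at processed signals of only 25.1 to 57.8, so its level rests on a probe near background.

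The 2 probes of Cd8b1, the CD8 beta chain, went in opposite directions. The brighter one, which the files place on chromosome 5 of mm8, had log2 ratios of -0.63 and -0.41 on day 3 and 0.09 and 0.24 on day 5, and was well above background on every array, sorts included. The dimmer one, which the files place on chromosome 6, where Cd8a lies, had means of 0.86 on day 3 and -0.09 on day 5. By processed signals its day 3 arrays gave log2 ratios of 1.17 and 0.81, and its day 5 arrays 0.03 and -0.24. It was above background on all 4 deletion arrays and on no sort array. Between the days the brighter probe rose by 0.68 ± 0.11 (SE; limma, adjusted p = 0.0206), and with the dimmer probe in its place Cd8b1 fell by 0.95 (adjusted p = 0.0111). RefSeq's gene table places Cd8b1 on chromosome 6. The 1 gene called higher on day 5 therefore rests on the choice of probe.

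Surface molecules of T cells and natural killer cells came next. Klrd1, the CD94 chain of inhibitory lectin receptors, had log2 ratios of 1.45 and 1.64 on day 3 and -0.10 and -0.28 on day 5. Cd7 had 1.50 and 1.17 and then 0.08 and -0.36, and Cd6, a receptor that tunes T cell activation, had 1.07 and 0.92 and then 0.29 and 0.21. All 3 fell between the days (limma, adjusted p = 0.0069, 0.0054 and 0.0169). Cd6 stayed above 0 on all 4 arrays, though its second, dim probe gave means of 0.12 and -0.04.

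Cd5, an inhibitory partner of the receptor, had a similar ratio on both days after loess with the offset background correction. Its day 3 arrays gave log2 ratios of 0.79 and 0.76 and its day 5 arrays 0.67 and 0.62, a mean of 0.71 ± 0.08 (SE, n = 2 RNA pairs) with the smallest adjusted p of the 40, 0.372 in limma. Its levels were 8.43 and 7.65 in deleted and control RNA of day 3 and 9.47 and 8.82 on day 5. In total 9 of the 40 genes were above 0 on all 4 deletion arrays, against 12.5% of all genes tested, and none was below 0 on all 4. With median centring in place of loess, Ikzf1 alone was above 0 on all 4, against 2.62% of all genes, and Cd5, Gzmb and Cd6 were below 0 on 1 day 5 array. Ptprc, which encodes the leukocyte antigen CD45, had 1.11 and 0.73 on day 3 and 0.22 and -0.14 on day 5, and fell by 0.88 ± 0.11 (limma, adjusted p = 0.0118). The remaining surface genes were Cd96, Cd69, Thy1, Cd160, Klre1 and Cd2, with day 3 means between 0.08 for Cd2 and 0.97 for Cd96. Of the 11 surface genes 7 fell, against 12.3% of all genes tested, and Cd5, Cd160, Klre1 and Cd2 did not pass.

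All 7 genes of receptor signalling and of the lymphocyte cytoskeleton had lower ratios on day 5 in limma's test, against 12.3% of all genes tested. Lck, the kinase bound to CD4 and CD8, had 0.69 and 1.01 on day 3 and -0.26 and 0.07 on day 5. Zap70, the kinase recruited to the zeta chain, had means of 0.94 and -0.04, and Lat, its scaffold, 0.77 and -0.17. Txk, a kinase of the Tec family, had 1.05 and -0.24, and the phosphatase gene Ptpn22 had 0.74 and 0.11. Coro1a, an actin regulator of leukocytes, had 0.91 and 1.05 on day 3 and -0.03 and 0.22 on day 5, with a second probe at means of 0.96 and 0.05. Rac2, a GTPase of blood cells, had 0.92 and 1.16 and then -0.15 and 0.14.

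Among the homing and cytokine receptors, Il2rb, the beta chain shared by the interleukin-2 and interleukin-15 receptors, had log2 ratios of 1.69 and 1.25 on day 3 and 0.00 and -0.14 on day 5. Itgae, the alpha E integrin chain that many intraepithelial lymphocytes carry, had 1.03 and 1.15 and then 0.14 and -0.04. Its partner Itgb7 had means of 1.05 and -0.09. The ratios of all 3 were lower on day 5 than on day 3. The differences were -1.54 ± 0.11 for Il2rb, -1.04 ± 0.18 for Itgae and -1.14 ± 0.11 for Itgb7 (SE; limma, adjusted p = 0.0051, 0.0227 and 0.0080). Il2rg, the common gamma chain, with a day 3 mean of 0.47, and Ccr9, the receptor for the gut chemokine CCL25, at 0.23, did not pass. Of the 2 lymphoid transcription factors, Tbx21 (T-bet) had means of 1.01 and -0.35 and fell, while Ikzf1 (Ikaros) had 0.30 and 0.50 on day 3 and 0.40 and 0.50 on day 5 and did not pass.

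A further list of 54 T cell and natural killer cell genes, chosen by name, had 47 on the array and 38 testable. Its median log2 ratio was 0.25 on day 3 and 0.01 on day 5. Between the days 18 of the 38 fell, against 12.3% of all genes tested, and 0 rose, against 15.5%. The 3 brightest were Bcl11b, a T cell transcription factor that some epithelia also make, at means of -0.51 and -0.20, Ptprcap, a CD45-associated protein, at 0.71 and -0.10, and Gimap5 at -0.02 and -0.18. Of these Ptprcap alone passed the test of the days (limma, adjusted p = 0.013). Genes shared by all leukocytes went the same way. Their median was 0.62 on day 3 and -0.03 on day 5. All 14 were above 0 on both day 3 arrays, against 38.9% of all genes tested. Of the 13 testable, 9 fell, against 12.3%. Cd52 and Hcls1 fell, with means of 1.31 and -0.02 and of 0.83 and 0.15, and Ptpn6, at 0.37 and -0.33, did not pass.

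Genes through which the epithelium deals with intraepithelial lymphocytes had a median of 0.22 on day 3 and -0.08 on day 5, over 17 genes on the array. Of the 15 testable, 6 fell, against 12.3% of all genes tested, and 1 rose, against 15.5%. Ccl25, the chemokine that draws Ccr9-bearing cells, differed between dyes more than between days, at -0.56 and 0.68 on day 3 and -1.53 and -0.31 on day 5. H2-T23, a nonclassical class I molecule, had means of 0.64 and -0.08, and Epcam, an epithelial adhesion molecule, 0.56 and -0.03. H2-T3 and Il15, singled out after their values were seen, had the largest and second largest day 3 means of the list. H2-T3, the thymus leukaemia antigen that binds CD8 alpha homodimers, had 1.90 and 1.44 on day 3 and -0.95 and -1.14 on day 5, and its probe may also capture other class I transcripts. Il15 had 0.95 and 1.16 on day 3 and -0.50 and -0.35 on day 5. Il15ra, also named after its values were seen, was the 1 gene of the list that rose (limma, adjusted p = 0.030). It had -0.25 and -0.27 on day 3 and 0.15 and 0.46 on day 5.

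Markers of other cells moved on the same arrays, and their part in the lymphocyte result was not tested. B and plasma cell markers had medians of 0.06 and -0.00, with Jchain, the joining chain of secreted antibody, at 1.64 and 0.80, Cd79b at 0.61 and 0.33 and Pou2af1 at 0.78 and -0.28, and 5 of 11 were testable. Myeloid markers had medians of -0.01 and 0.26, with 17 of 18 testable, and day 5 means of up to 3.95. The brightest were the lysozyme gene Lyz2 at -1.01 and 0.46, Cd14 at -0.17 and 0.92 and Tyrobp, an adaptor of natural killer and myeloid cells, at 1.24 and 0.07. Lyz2 and Cd14 were also well above background on all 4 sort arrays in both RNAs, and whether they stand for myeloid cells here was not tested. Mast cell markers had medians of -0.25 and 0.12, over 9 of 10 testable, with the mucosal proteases Mcpt1 at -2.23 and 0.36 and Mcpt4 at -1.89 and 0.30, and Kit at 0.20 and -0.11. Stromal and endothelial markers had medians of 0.02 and 1.42, over 8 of 13 testable, with Acta2 at 0.11 and 0.18, Vim at 0.35 and 1.53 and Col3a1 at -1.07 and 5.11. Epithelial markers had medians of 0.32 and 0.11, all 14 testable, with Krt8 at 0.09 and 0.11, Lgals4 at 0.64 and 0.09 and Krt18 at -0.12 and -0.56.

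**Figure D3:**
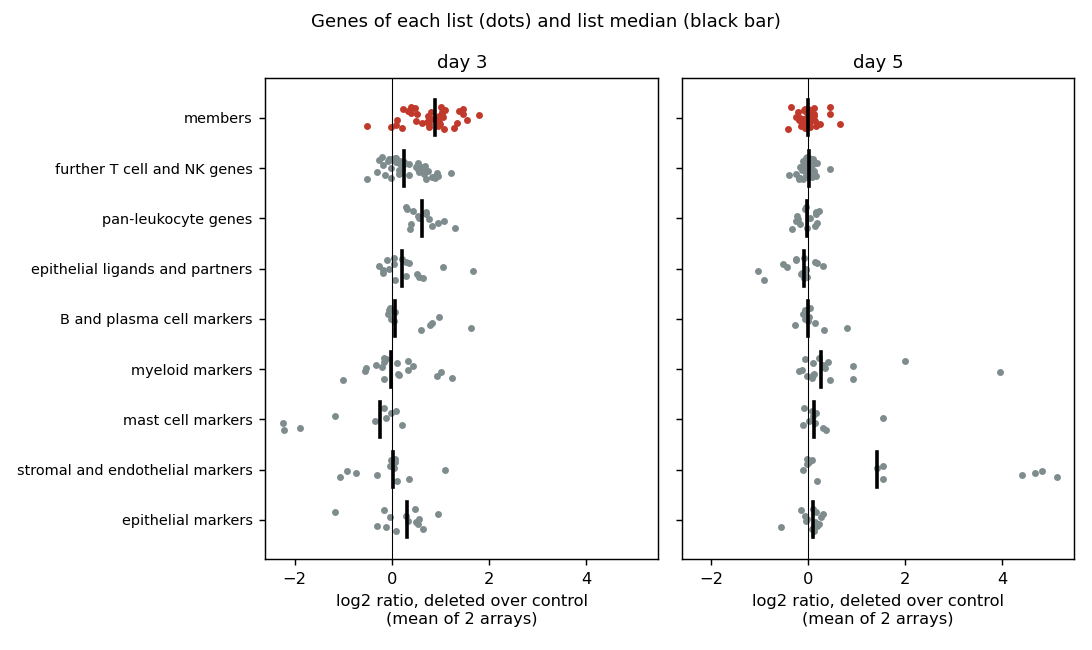
Log2 ratio of deleted over control RNA for the genes of 9 lists (points, each the mean of 2 arrays) and the list medians (black bars), on day 3 (left) and day 5 (right). The 40 genes (red) have a median of 0.89 on day 3 and -0.01 on day 5, and the stromal list has points near 5 on day 5.

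In the sorted cells these genes were mostly dim, and their ratios of GFPhi over GFPlo centred on 0. The median log2 ratio of GFPhi over GFPlo was -0.0043 in sort 1 and -0.00042 in sort 2. The offset of the background correction holds the ratios of dim genes near 0, and 21 of the 40 were above background on no sort array. These medians therefore cannot show whether the sorted cells differ in these genes. Of the 9 testable genes, Cd8b1, Cd6, Cd7, Lck, Coro1a, Rac2, Gzma, Ccl5 and Itgb7, limma called 0, as it called 0% of 10436 genes in either direction. None of the 9 had an unadjusted p under 0.05 in limma, and the fit with the RNA pair as a random block called none either. With the scanner software's log ratio, limma's unadjusted p was under 0.05 for 2 of the 9, and 0 were called after adjustment. The processed signals of Gzma were 221 to 465 over the 8 sort channels, against 15058 to 56770 over those of the deletion, though each array was scaled on its own. On 1 scale across arrays, the median of the 40 genes was 7.43 to 7.51 in sorted RNAs and 8.29 to 9.30 in deletion RNAs. Over all genes tested in the deletion the medians were 8.98 to 9.05 in sorted RNAs and 9.04 to 9.11 in deletion RNAs.

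Lck and Rac2 kept 1 sign on all 4 sort arrays. Lck was above 0 on all 4, against 16.5% of genes tested, and Rac2 was below 0 on all 4, against 17.2%. Their ratios are compressed by the offset of the background correction at such low signals, so the log2 ratios from the scanner software's processed signals are given as well. For Lck these were 0.71, 0.68, 0.86 and 0.87, all higher in GFPhi, from processed signals of 180 to 332 in GFPhi and 112 to 183 in GFPlo. For Rac2 they were -1.08, -1.26, -0.81 and -0.37, all lower in GFPhi. Neither passed limma on those ratios (adjusted p = 0.483 and 0.484). The second probe of Rac2, above background on all 4 arrays in GFPlo and on none in GFPhi, has only a bound in GFPhi. On the scale compressed by the offset it was at least 1.22-fold brighter in GFPlo. Its processed signals gave log2 ratios of -1.68, -2.07, -0.93 and -1.13, with the GFPhi signal not above background.

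The other testable genes changed sign between arrays or sorts. By processed signals, Coro1a had -0.63 and -0.48 in sort 1 and -0.12 and 0.14 in sort 2, Cd6 had -0.56 and 0.96 and then 0.26 and 0.77, and Gzma had -0.30 and 0.30 and then 0.11 and 0.15. The brighter probe of Cd8b1 had 0.16 and -0.22 in sort 1 and 0.16 and 0.29 in sort 2. Tbx21 was outside the testable genes, and its signal followed the dye. Its red signal was 1642, 873, 351 and 479 on the 4 arrays and its green signal 23.1, 87.6, 28.5 and 30.9, whichever RNA the channel held.

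**Figure D4:**
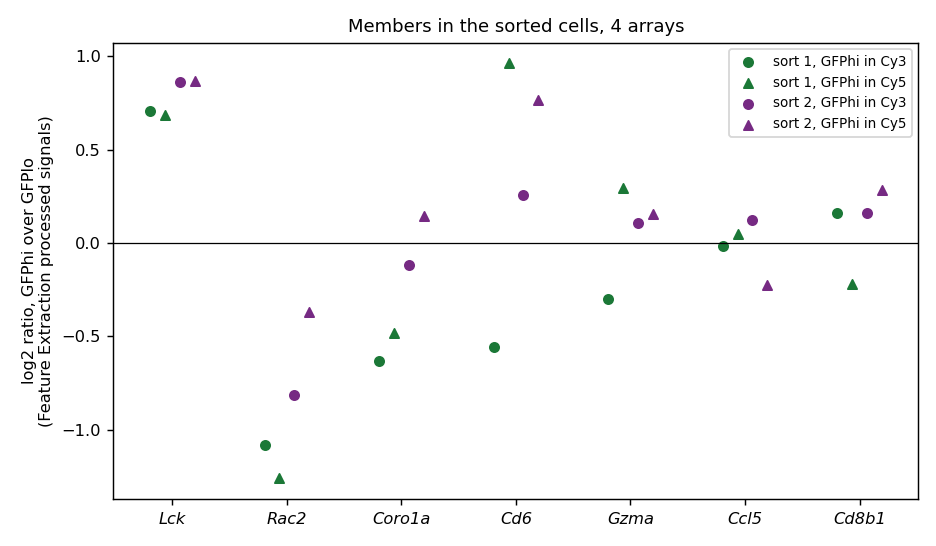
Log2 ratio of GFPhi over GFPlo from the scanner software's processed signals on the 4 sort arrays (colour, sort; symbol, dye of the GFPhi RNA) for 7 genes testable in the sorts. Lck lies between 0.68 and 0.87 on all 4 arrays, and Rac2 lies below 0 on all 4.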

How the data were processed

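RNA was measured on 8 two-colour arrays. Trizol isolation and linear amplification labelling are given per the labels' protocols. Per the file headers, Agilent Feature Extraction gave spot intensity values (mean foreground, median local background), processed signal intensities and a log10 ratio (Cy5 to Cy3), with probe positions on mouse build mm8. The deposited series matrix holds log2 ratios. Their scale and direction were found from the scanner's ratios (absolute r of 0.964 or more), and which spots the authors left out is unknown.

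Background was corrected with normexp (offset 50), arrays were normalised by loess with controls at weight 0, outlier spots were left out, and ratios were turned to deleted over control or GFPhi over GFPlo. Probes were named through RefSeq accessions (23326), current (6722) or older symbols (2919), the member names (59) or the file's own name (8148). Dye-swapped arrays were averaged, and the 4 RNA pairs fitted together in limma 3.58.1 (R 4.3.3) over genes well above background on all arrays of at least 1 RNA. Adjusted p values are Benjamini-Hochberg, two-sided, threshold 0.05, and measure only how far these pools and extracts lie apart. The test was checked on simulated ratios. The genes, lists and tests were chosen with earlier results of these data known. Per-array values are given for up to 12 genes farthest from 0 in the deletion, up to 6 in the sorts, and Cd3e, Cd8a, Itgae, Ptprc and Cd8b1. Up to 3 genes, the brightest, are named per further list. Log2 levels come from the loess fit with intensities quantile normalised between arrays. Alternatives covered background, normalisation, filter, probe choice, left-out pairs and fits.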

Additional observations from a re-analysis of the deposited data

Results flagged for a closer look

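The deletion's log2 ratio differed between the days, in limma's fit with a coefficient for each day, for 28 of the 40 genes. It was lower on day 5 for 27, against 12.3% of all genes tested, and higher for 1, against 15.5%. The day 5 minus day 3 differences of the cytotoxic genes were -1.81 for Gzma, -1.01 for Gzmb, -1.45 for Ccl5, -1.05 for Nkg7 and -1.02 for Ctsw. Those of the receptor complex were -1.49 for Cd3d, -1.31 for Cd3g, -0.75 for Cd247 and -1.10 for Cd8a, and 0.68 for Cd8b1 by its brighter probe. Those of the surface genes were -1.74 for Klrd1, -1.47 for Cd7, -0.74 for Cd6, -0.96 for Cd96, -0.69 for Cd69, -0.61 for Thy1 and -0.88 for Ptprc. Those of the signalling and cytoskeletal genes were -0.95 for Lck, -0.98 for Zap70, -0.94 for Lat, -1.30 for Txk, -0.62 for Ptpn22, -0.89 for Coro1a and -1.04 for Rac2. Those of the receptors for cytokines and homing were -1.54 for Il2rb, -1.04 for Itgae and -1.14 for Itgb7, and Tbx21 had -1.36. Another 3 genes lay above 0 on both day 3 arrays and below 0 on both day 5 arrays without passing that test, Cd3e at -0.28, Ccr9 at -0.24 and Klre1 at -0.14. Each day had 1 RNA pair, so the spread came from the sorts, where most of these genes were dim. With the scanner software's log ratio or with median centring, limma called none of the 40.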

How the results depend on the processing

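The 40 genes' day 3 median, 0.89, was 1.08 with Feature Extraction's log ratio, 1.06 with the series matrix and 0.72 with median centring. The day 5 median was -0.042 and -0.088 with the first and the last of these. The median over the sorts, -0.00064, was 0.0067 without background subtraction, 0.048 with Feature Extraction's ratio, 0.043 with the series matrix and 0.0071 over all probes, and it ran from -0.0043 to -0.00042 with 1 sort left out. Genes at least 2-fold higher on both day 3 arrays were 9, and 20, 17 and 2 with Feature Extraction's ratio, the series matrix and median centring. Genes above 0 on all 4 deletion arrays were 1 with median centring, in place of 9, and those above 0 on both day 5 arrays 1, in place of 10. Genes of 1 sign on all 4 sort arrays, 1 each way, were 0 each way with the series matrix, and 2 higher without a filter, over all probes or with the dimmer Cd8b1 probe, and 2 lower with median centring. In the deletion the calls ran from 0 to 34 higher and from 0 to 1 lower with 1 RNA pair left out, and were 2 higher with the random block. In the day test the 27 lower genes were 0 with Feature Extraction's ratio and with median centring, and 8 of 9 among genes above background in the sorts. The 1 higher gene was 0 under those 2 normalisations, the series matrix, the random block, all probes and the dimmer Cd8b1 probe. Cd8b1 reversed to -0.13 over all probes and -0.95 with its dimmer probe. The cause of these shifts was not tested. The dimmer Cd8b1 probe, the test over genes above background in the sorts and the processed levels were chosen after seeing the data. The slide was not run as a block, since each slide held 1 RNA pair, and the day test has no value with a pair left out or with separate fits.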
